A study of Homo sapiens with 9 samples.

Results

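Gene expression was compared between H1299 cells transfected with the siRNA Si-FIBP#2 and H1299 cells transfected with Scramble, the control siRNA. H1299 is an established human lung cancer cell line. The comparison used 6 of the 9 RNA-seq samples, 3 per group, and the remaining 3 samples received Si-FIBP#1, a second siRNA against the same mRNA. The cells carried no other labelled treatment or allele, and the series design calls the samples of a group independent. The design asked which transcripts change when FIBP is depleted. Transcript values were summed to 60966 genes, and 14465 of them were tested, namely those that reached 1 FPKM in 3 or more of these samples. FPKM is the number of sequenced fragments scaled by transcript length and by library size.

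FIBP encodes an intracellular protein that binds the acidic fibroblast growth factor FGF1. An siRNA guides the RNA-induced silencing complex to a matching site in an mRNA, which is then cleaved, and it can also repress other mRNAs through the few bases of its seed. KEGG maps are curated diagrams of pathways, and the deposited tables assign genes to them. DNA replication needs the MCM helicase to be loaded on origins in G1, the primase and polymerases to copy DNA in S phase, and a separate set of kinases, kinesins and checkpoint proteins to divide the copies in mitosis. In cycling cells the genes of the former steps are known targets of E2F factors, and the genes of mitosis are known for CHR and CCAAT elements in their promoters.

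The 6 libraries summed to between 781058 and 789857 FPKM, and an estimate from the smallest steps between low values gave 20050000 to 22700000 fragments each. Samples of the same group correlated over the tested genes at 0.985 to 0.989 and samples of different groups at 0.955 to 0.963. Markers of other cell types were scarce. Of the markers listed, 11 of 12 for leukocytes, 7 of 10 for fibroblasts, 8 of 8 for endothelium and 9 of 10 for lung epithelium stayed below 1 FPKM in all 6 samples. The leukocyte marker above that level was CD68, which is also a lysosomal membrane protein (log2 fold change 0.90, and called at 1.02 without Si-FIBP#2 replicate 2), and the summed leukocyte markers ranged from 32.2 to 34.0 FPKM in Scramble and from 51.6 to 68.2 FPKM after Si-FIBP#2.

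The Si-FIBP#2 site is shown because it locates the stretch of the FIBP mRNA that this siRNA matches. In the GENCODE release 29 transcript ENST00000357519 it spans nucleotides 645 to 663, which lie in coding exon 5 of 10, at chr11:65885634-65885652 of GRCh38 on the minus strand. The capitals mark the bases that pair with the seed of the guide strand.
Si-FIBP#2 site in FIBP: ccatcgtcttcTTTGCTAa
This site occurs in 7 of the 13 annotated FIBP transcripts. Among the 14105 tested genes with a transcript in that release, the longest run of the site outside FIBP was 14 bases, in APOLD1, LIPT1 and NDUFS3, and their log2 fold changes were -0.52, 0.20 and 0.11.

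FIBP was at 88.4, 79.5 and 77.7 FPKM in Scramble and at 7.13, 5.92 and 8.21 FPKM in the 3 Si-FIBP#2 samples. The groups were far apart, and the log2 fold change was -3.36 ± 0.11 (SE, limma adjusted p = 1.05e-05). The annotated FIBP transcripts together fell from 76.4 to 3.65 FPKM, which left 4.78% of the Scramble level. The 2 assembled transcripts assigned to FIBP went from 5.48 to 3.44 FPKM, which left 62.7%. These 2 transcripts are 6402 and 6204 bases long, longer than the annotated FIBP gene (chr11:65883741-65888539), so they reach beyond it. The value of the gene as a whole thus holds a part that fell less than the annotated mRNA. Whether that part is FIBP mRNA was not tested.

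With Si-FIBP#2, 434 genes were called higher and 312 genes lower. A call needed a Benjamini-Hochberg FDR below 0.05 in limma and a fold change above 2. These are 3.00% and 2.16% of the tested genes, and 5.16% in both directions together. Without the fold threshold, 4296 genes (29.7%) were higher and 2531 (17.5%) lower. The groups did not overlap in 740 of the 746 called genes, against 58.2% of all tested genes. The split between directions depended on scaling. When the libraries were scaled by the median ratio to each other, 333 genes were called higher and 423 lower. The median log2 fold change over all tested genes was 0.105, and 0.010 with that scaling.

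The higher and the lower genes differed in gene type and in level. Long noncoding genes made up 10.9% of the tested, 24.7% of the higher and 2.56% of the lower genes. Of 1580 such genes, 107 were called higher (6.77%) and 8 lower (0.506%), against 3.00% and 2.16% of all genes. Of 11881 protein-coding genes, 290 were called higher (2.44%) and 292 lower (2.46%). The median Scramble level was 2.17 FPKM for long noncoding and 14.2 FPKM for protein-coding genes. Among the fifth of genes with the lowest mean FPKM over both groups, 4.36% were called higher and 0.657% lower, and among the fifth with the highest mean, 1.14% and 3.63%. Because 1 FPKM was added before the log, a gene at or below 1 FPKM in Scramble could be called higher but not lower. In the same way, a gene at or below 1 FPKM after Si-FIBP#2 could be called lower but not higher. How far the splits by type and by level follow from this floor was not tested. Because these are bulk samples, fewer cells in a state and less RNA per cell cannot be told apart.

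The genes that fell most after FIBP included genes of secreted, membrane and regulatory proteins. THBS1, which encodes the matrix glycoprotein thrombospondin 1 (chr15:39581079-39599466), was at 33.9, 31.8 and 29.9 FPKM in Scramble and at 3.56, 2.48 and 2.20 FPKM after Si-FIBP#2. Its log2 fold change was -3.15 ± 0.14 (SE, limma adjusted p = 1.93e-05). PMAIP1, which encodes the proapoptotic BH3-only protein NOXA, went from 16.6, 18.1 and 17.0 FPKM to 2.47, 2.15 and 2.18 FPKM. Genes were picked here among those without overlap, and for these no sample of either group came near the other group. PLAC8 was at 46.6, 49.1 and 59.4 FPKM in Scramble and at 6.17, 5.90 and 10.2 FPKM after Si-FIBP#2. Its log2 fold change was -2.67, and that of PMAIP1 was -2.48.

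CAV1, which encodes the main coat protein of caveolae, went from 138.2, 139.7 and 133.1 FPKM to 35.4, 24.95 and 29.4 FPKM. CCN2, a matricellular growth factor gene, went from 49.9, 44.8 and 45.3 FPKM to 9.16, 11.3 and 7.99 FPKM. Their groups did not overlap, as the choice of genes required, and the log2 fold changes were -2.17 and -2.20. ID1 and ID3, which encode dominant-negative partners of bHLH transcription factors, fell by 2.12 and 2.06 on the log2 scale. VIPR1, which encodes a receptor for vasoactive intestinal peptide, fell by 2.12 from 9.45 to 1.39 FPKM.

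BTF3 encodes a subunit of the nascent polypeptide-associated complex, which binds new proteins at the ribosome (chr5:73498408-73505635). It was at 1052, 1125 and 1113 FPKM in Scramble and at 189, 302 and 172 FPKM after Si-FIBP#2, a log2 fold change of -2.35 ± 0.19 (SE, limma adjusted p = 0.00011). All 3 depleted samples lay far below Scramble, and replicate 2 was the highest of them. Among called genes, the falls that were largest in FPKM were those of MT2A (2704 to 987.7), NME2 (1488 to 427), TUBA1B (1660 to 660.3), BTF3 (1097 to 220.8) and HSP90AA1 (1342 to 613.9). MT2A encodes a metallothionein, NME2 a nucleoside diphosphate kinase, TUBA1B an alpha-tubulin and HSP90AA1 the inducible HSP90. NME2 shares sequence with NME1 and with a readthrough transcript, and TUBA1B with other tubulin genes, so their values are uncertain. AC011603.3 and AP003392.2 were also among the 12 largest falls, at -2.21 and -2.30. AC011603.3 is an antisense gene that overlaps TUBA1B, and without strand its reads cannot be told from those of TUBA1B. AP003392.2 was no longer called without Scramble replicate 1 or 2 (log2 fold change -2.47 and -1.88) or without Si-FIBP#2 replicate 1 or 2 (-1.88 in both).

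The largest rise was that of STC1, which encodes the secreted hormone stanniocalcin 1. It was at 29.4, 26.1 and 27.2 FPKM in Scramble and at 269.5, 285.4 and 311.6 FPKM after Si-FIBP#2, a log2 fold change of 3.34 ± 0.07 (SE, limma adjusted p = 1.81e-06). VGF, which encodes a neuroendocrine secreted precursor protein (chr7:101162509-101165593), was at 40.3, 40.2 and 39.9 FPKM and at 166.6, 171.9 and 175.6 FPKM. The samples of each group were tight for both genes, and the log2 fold change of VGF was 2.07. DMBT1, a secreted scavenger receptor gene, rose by 2.49 on the log2 scale, from 2.06 to 16.4 FPKM. GAP43, which encodes a growth cone protein of neurons, was at 0.73, 0.94 and 0.94 FPKM and at 8.07, 9.01 and 10.5 FPKM. Of the 12 neuronal markers, 7 stayed below 1 FPKM in all samples, and GAP43 was the only one called. SNAP25 was at 9.94 FPKM in Scramble and 14.6 FPKM after Si-FIBP#2, TUBB3 at 157.4 and 119.7 FPKM and SYP at 3.03 and 1.75 FPKM. GAP43 passed the filter only through the 3 Si-FIBP#2 samples and did not enter the test without any one of them.

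ANKRD46, which encodes an ankyrin repeat protein, rose by 2.07 on the log2 scale, from 9.30 to 42.5 FPKM. GCNA, a germ cell nuclear protein gene, was at 0.72, 0.81 and 0.69 FPKM in Scramble and at 4.71, 12.3 and 4.51 FPKM after Si-FIBP#2, where replicate 2 stood above the other two. It likewise entered the test only through the Si-FIBP#2 samples. The noncoding CDC37L1-DT (0.93 to 8.98 FPKM) and the pseudogene SUMO1P1 (2.35 to 12.2 FPKM) were also among the 12 largest rises, and pseudogene values are uncertain where reads match the parent gene. AC011445.1 rose by 3.26 and RPL32P29 by 2.16. AC011445.1 was no longer called without Si-FIBP#2 replicate 1, 2 or 3 (3.15, 3.44 and 3.18), and RPL32P29 was no longer called without Scramble replicate 1 or 3 (1.80 and 1.86) or without Si-FIBP#2 replicate 2 or 3 (2.18 and 1.75). In FPKM, the largest rises among called genes were those of H2BC12 (185.5 to 511.3), STC1 (27.5 to 288.9), VGF (40.1 to 171.4), HLA-B (99.9 to 217.7) and IFI27L2 (74.0 to 168.0). HLA-B, an antigen-presenting class I gene, shares sequence with other HLA genes and was not called without Si-FIBP#2 replicate 1 (log2 fold change 0.96) or with median ratio scaling (0.996).

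**Figure D1:**
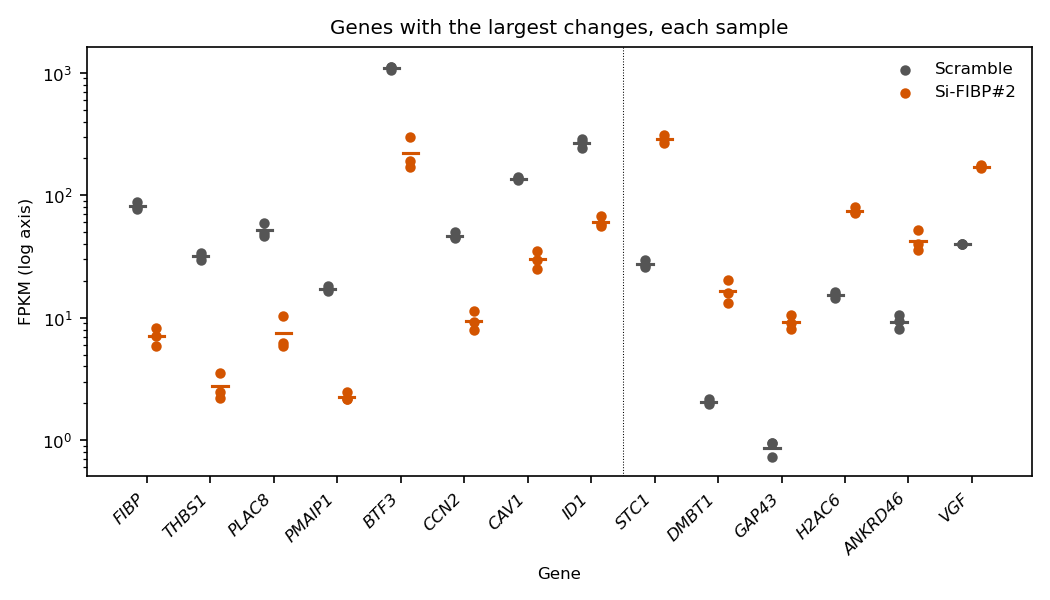
FPKM on a log axis of 14 genes, among those with the largest falls (left of the dotted line) and rises (right), in the 3 Scramble samples (grey) and the 3 Si-FIBP#2 samples (orange), with bars at the group means. The 3 points of one group lie apart from the 3 points of the other for each of these genes, which the choice of all but FIBP required.

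DNA replication was the KEGG map with the highest share of lower genes among the 219 ranked maps. Of its 38 tested genes, 12 were called lower (31.6%, against 2.16% of all genes) and none higher. At the FDR alone 31 of the 38 were lower, against 17.5% of all tested genes. The median log2 fold change of the map was -0.71. All 6 subunits of the MCM2-7 helicase, which unwinds DNA at the fork, were among the 12. MCM7, the most abundant, was at 338.1, 323.8 and 324.0 FPKM in Scramble and at 137.1, 129.0 and 137.5 FPKM after Si-FIBP#2. MCM5 was at 52.4, 50.4 and 51.3 FPKM and at 18.6, 16.1 and 19.9 FPKM. The samples of each group lay within a narrow range, and the log2 fold changes of the 6 subunits ran from -1.03 for MCM3 to -1.45 for MCM5.

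The clamp and some subunits of its loader were called lower. PCNA, the sliding clamp, went from 180.4, 182.4 and 188.9 FPKM to 82.2, 78.7 and 80.8 FPKM (log2 fold change -1.18). RFC4, a subunit of the clamp loader, went from 67.0, 59.9 and 63.7 FPKM to 19.9, 21.4 and 24.9 FPKM, the largest fall in the map at -1.49. RFC3 was called lower at -1.02, whereas RFC2, RFC5 and RFC1, the large subunit, stayed short of the fold threshold at -0.66, -0.77 and -0.26. Among the enzymes of synthesis, the primase subunit PRIM2 (-1.26), the ligase LIG1 (-1.15) and the catalytic subunit of polymerase delta, POLD1 (-1.02), were called lower. The catalytic subunits of polymerase alpha, POLA1 (-0.62), and of polymerase epsilon, POLE (-0.75), had falls under a fold of 2. RPA1, the large subunit of the single-strand binding complex, was at 42.1 FPKM in Scramble and 40.8 FPKM after Si-FIBP#2 (limma adjusted p = 0.564).

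A list of 54 genes of G1/S and origin licensing gave 31 called lower and none higher, with a median of -1.05, against a median of 0.105 over all tested genes. Of the 54, 52 were lower at the FDR alone, against 17.5% of all tested genes. Its largest falls were those of UHRF1, a maintenance factor of DNA methylation (66.5 to 18.04 FPKM, log2 fold change -1.84), RRM2, the regulated subunit of ribonucleotide reductase (132.4 to 36.9 FPKM, -1.83), the transcription factor gene E2F2 (6.38 to 1.5 FPKM, -1.57) and TYMS, thymidylate synthase (213.5 to 73.4 FPKM, -1.53). CDC45, which activates the loaded helicase, and the loading factor CDC6 fell by 1.53 and 1.37. E2F1 went from 23.9, 23.0 and 23.5 FPKM to 11.4, 8.42 and 10.9 FPKM, without overlap.

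The list of 54 genes of G2/M and mitosis moved in the same direction. All 54 had lower values at the FDR, against 17.5% of all tested genes. Of the list, 29 were called lower (53.7%, against 2.16%) and none higher, and the median was -1.02. KIF20A, a kinesin of cytokinesis, went from 53.5, 50.9 and 54.5 FPKM to 16.9, 13.96 and 16.2 FPKM (log2 fold change -1.70). CDC20, the activator of the anaphase-promoting complex, went from 179.8, 165.4 and 170.7 FPKM to 63.6, 53.7 and 60.6 FPKM (-1.52). In these genes each Si-FIBP#2 sample lay below 50% of the mean of Scramble, and replicate 2 was the lowest. MYBL2 and ESPL1, the genes of a proliferation transcription factor and of separase, followed at -1.52 and -1.501. The mitotic kinase CDK1 and its cyclin CCNB1 fell by 1.35 and 1.35.

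The Cell cycle map had 27 of 130 genes lower (20.8%, against 2.16% of all genes), with a median of -0.30. Of these 27, 7 also stand in the DNA replication map. E2F2, CDC45, CDC20 and ESPL1 led the falls. CCNB3, a B-type cyclin gene of low expression, was the only gene of the map called higher (0.38 to 2.25 FPKM). It did not enter the test without Si-FIBP#2 replicate 1, 2 or 3, and without Scramble replicate 3 the map had 2 higher genes. In the Oocyte meiosis map 15 of 123 genes (12.2%) were lower, 10 of which are also in the Cell cycle map.

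**Figure D2:**
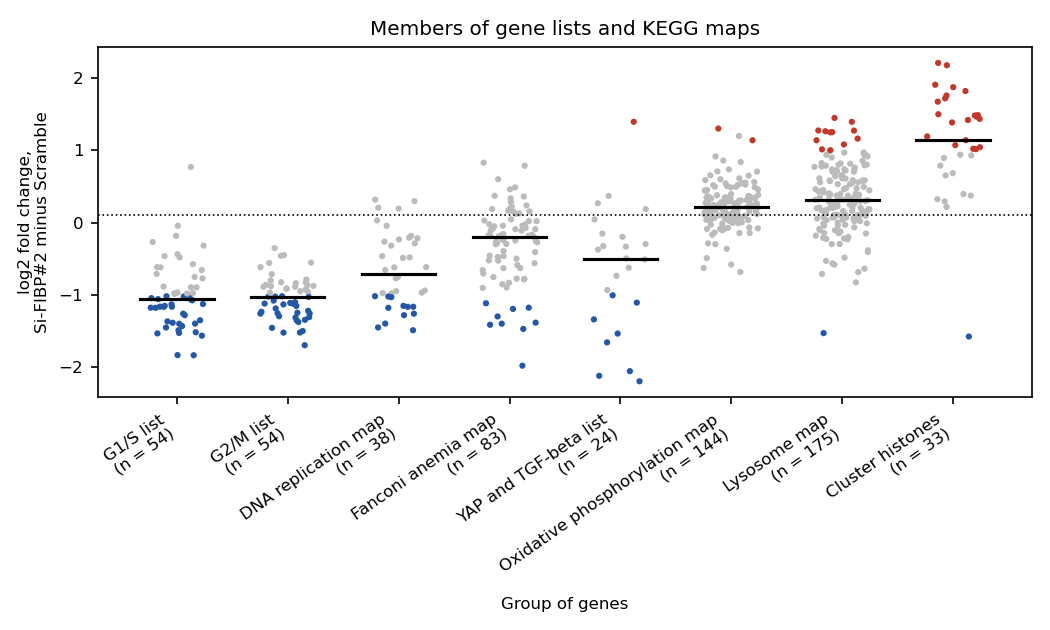
Log2 fold changes of Si-FIBP#2 over Scramble for the tested members of 8 groups of genes, with n under each name. Points are genes (blue called lower, red called higher, grey not called), black bars are group medians, and the dotted line is the median of all tested genes, 0.105. The G1/S and G2/M lists lie lowest and the cluster histones highest.

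Promoters of these genes were examined for the elements named above, in the stretch from 250 bases before to 50 bases after the start in RefSeq (GRCh38.p14). The E2F letters searched were TTTCCCGC, TTTGGCGC, TTTCGCGC and TTTGCCGC, the CHR letters TTTGAA and the CCAAT letters CCAAT, each on both strands, and TTTGGCGC and TTTCGCGC can overlap on opposite strands. Of the G1/S list, 45 of 54 genes had a promoter in the table, and 21 of them (46.7%) held an E2F match, against 5.67% of the 10040 promoters matched to tested genes and 3.33% of all 27305 promoters. Of the G2/M list, 47 genes had a promoter. CHR letters were in 34 of them (72.3%, against 9.36% of tested genes and 15.4% of all promoters). Both CHR and CCAAT were in 26 (55.3%, against 4.12% and 6.08%). Members of the list that were not called, such as MKI67 and HMMR, also held CHR letters. KIF20A, with the largest fall of the list, held none, and RRM2 of the G1/S list held no E2F match. Among all genes called lower, 13.7% of 241 promoters held an E2F match and 21.6% CHR letters. Among all genes called higher, the shares were 4.48% and 9.70% of 268 promoters. The genes called lower include 31 of the G1/S list and 29 of the G2/M list, and their shares without these lists were not computed. A match is a string of letters and not a bound site.

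A pair of promoters that hold matches, from each list, shows how the letters are arranged, with the E2F matches in capitals in the former pair.
MCM6 (chr2:135876394-135876693, minus strand): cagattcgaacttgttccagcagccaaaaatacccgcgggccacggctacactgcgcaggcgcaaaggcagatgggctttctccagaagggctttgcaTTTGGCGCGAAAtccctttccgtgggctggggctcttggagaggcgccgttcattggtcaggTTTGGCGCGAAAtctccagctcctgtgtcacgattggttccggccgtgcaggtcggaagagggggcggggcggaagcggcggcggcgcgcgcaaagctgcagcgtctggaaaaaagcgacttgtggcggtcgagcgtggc
E2F1 (chr20:33686336-33686635, minus strand): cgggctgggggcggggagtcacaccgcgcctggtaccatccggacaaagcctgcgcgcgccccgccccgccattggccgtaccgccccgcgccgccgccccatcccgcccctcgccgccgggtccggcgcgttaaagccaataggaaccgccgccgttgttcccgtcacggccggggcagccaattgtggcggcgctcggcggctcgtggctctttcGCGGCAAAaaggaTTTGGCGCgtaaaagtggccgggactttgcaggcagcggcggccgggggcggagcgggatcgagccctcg
In the latter pair the capitals mark the CHR and CCAAT letters of either strand.
CDC20 (chr1:43358731-43359030, plus strand): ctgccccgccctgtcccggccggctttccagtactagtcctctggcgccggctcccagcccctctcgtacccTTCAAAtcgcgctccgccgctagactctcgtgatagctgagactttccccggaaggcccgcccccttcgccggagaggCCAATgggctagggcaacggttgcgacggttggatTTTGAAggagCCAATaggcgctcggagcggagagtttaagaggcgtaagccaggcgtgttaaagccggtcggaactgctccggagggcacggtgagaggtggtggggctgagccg
TOP2A (chr17:40417847-40418146, minus strand): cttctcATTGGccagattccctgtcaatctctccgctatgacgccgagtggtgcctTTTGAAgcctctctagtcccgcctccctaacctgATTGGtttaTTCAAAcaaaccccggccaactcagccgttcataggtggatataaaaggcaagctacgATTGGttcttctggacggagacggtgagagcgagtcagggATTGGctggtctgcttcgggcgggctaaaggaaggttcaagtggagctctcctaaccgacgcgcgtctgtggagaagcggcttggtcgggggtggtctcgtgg
MCM6, with matches on both strands overlapping at 2 places, went from 68.5 to 30.04 FPKM (log2 fold change -1.17), and TOP2A, which encodes the topoisomerase of chromosome segregation, went from 70.8 to 28.1 FPKM (-1.31).

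Repair maps other than homologous recombination also held lower genes, against a share of 2.16% over all genes. In mismatch, nucleotide excision and base excision repair, part of the count came from replication enzymes that the maps share. In Mismatch repair 6 of 46 genes were lower (13.0%), and 5 of the 6 are also in the DNA replication map. The sixth was MSH6, which recognises mismatches, at 49.3, 50.6 and 49.5 FPKM in Scramble and 24.2, 21.0 and 22.8 FPKM after Si-FIBP#2, without overlap. In Nucleotide excision repair 6 of 48 genes were lower (12.5%), again with 5 shared. In Base excision repair 5 of 49 were lower (10.2%), with 3 shared, and this count was 8 with median ratio scaling. The other two lower genes were UNG, the uracil glycosylase (62.5 to 27.3 FPKM, log2 fold change -1.17), and NEIL3, a glycosylase of oxidised bases (8.51 to 2.81 FPKM, -1.32). One further glycosylase gene, NEIL1, was called higher (1.64 to 4.49 FPKM, 1.07), but not without Scramble replicate 2 (0.98) or with median ratio scaling (0.99).

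The Fanconi anemia map, which covers the repair of DNA crosslinks, had 9 of 83 genes lower (10.8%, against 2.16% of all genes). None were higher, and none of the 9 were shared with DNA replication. BLM, a RecQ helicase, was at 8.93, 9.42 and 9.60 FPKM in Scramble and at 1.59, 1.22 and 2.11 FPKM after Si-FIBP#2. Its log2 fold change of -1.98 ± 0.14 (SE, limma adjusted p = 5.83e-05) was the largest of the map. EME1, a subunit of a structure-specific nuclease, was at 26.9, 22.2 and 23.6 FPKM and at 8.14, 7.26 and 8.89 FPKM (-1.47). Both genes had groups well apart. The monoubiquitinated pair FANCD2 and FANCI fell by 1.30 and 1.39, the conjugating enzyme UBE2T by 1.18, and the core complex genes FANCA, FANCG and FAAP24 by 1.20, 1.12 and 1.40.

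Precursor supply for DNA showed falls in a few enzymes within maps that were otherwise mixed. In the Pentose phosphate pathway 4 of 25 genes were lower (16%) and the map median was -0.00. PRPS1 and PRPS2, the synthetases of phosphoribosyl pyrophosphate, went from 56.1 to 15.5 and from 43.5 to 13.1 FPKM (log2 fold change -1.79 and -1.66). RPIA, an isomerase of pentose phosphates, was at 17.7, 18.4 and 18.7 FPKM and at 5.55, 8.84 and 5.75 FPKM (-1.35). PFKP, a phosphofructokinase, was the other gene lower (-1.19). RBKS, the ribokinase gene, was called higher (1.65 to 5.17 FPKM, 1.22). In the folate map 3 of 21 genes were lower (14.3%), TYMS among them. In Pyrimidine metabolism 4 of 50 were lower, RRM2, NME2, TYMS and the thymidine kinase TK1, and in Purine metabolism 5 of 113, with the synthase PFAS at -1.40. These are 8.0% and 4.42%, against 2.16% of all genes. In Purine metabolism 4 genes were higher (3.54%, against 3.00%), among them the adenylosuccinate synthase ADSS1 (19.5 to 43.3 FPKM) and the phosphodiesterase PDE4D (4.82 to 10.9 FPKM), which was not called without Scramble replicate 1 (0.99) or with median ratio scaling (0.94). The other two are an antisense and an assembled gene. Among genes of the amino acid response, the serine synthesis enzyme PHGDH (55.4 to 18.9 FPKM), the transporter SLC7A5 (54.5 to 21.7 FPKM) and the asparagine synthetase ASNS (87.5 to 37.1 FPKM) were called lower and the lipoprotein receptor VLDLR higher, out of 29 tested (10.3% lower and 3.45% higher, the latter close to the 3.00% of all genes).

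CDKN1A, which encodes the cyclin-dependent kinase inhibitor p21, was at 47.3, 47.6 and 49.6 FPKM in Scramble and at 52.2, 57.2 and 54.3 FPKM after Si-FIBP#2. The groups did not overlap, but the log2 fold change was 0.18. Of the BCL2 family, BCL2L11, the proapoptotic gene of BIM, was called higher (3.22 to 9.75 FPKM, 1.34) and PMAIP1 lower, out of 16 tested. Each is 6.25% of this small list, against 3.00% and 2.16% of all genes.

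**Figure D3:**
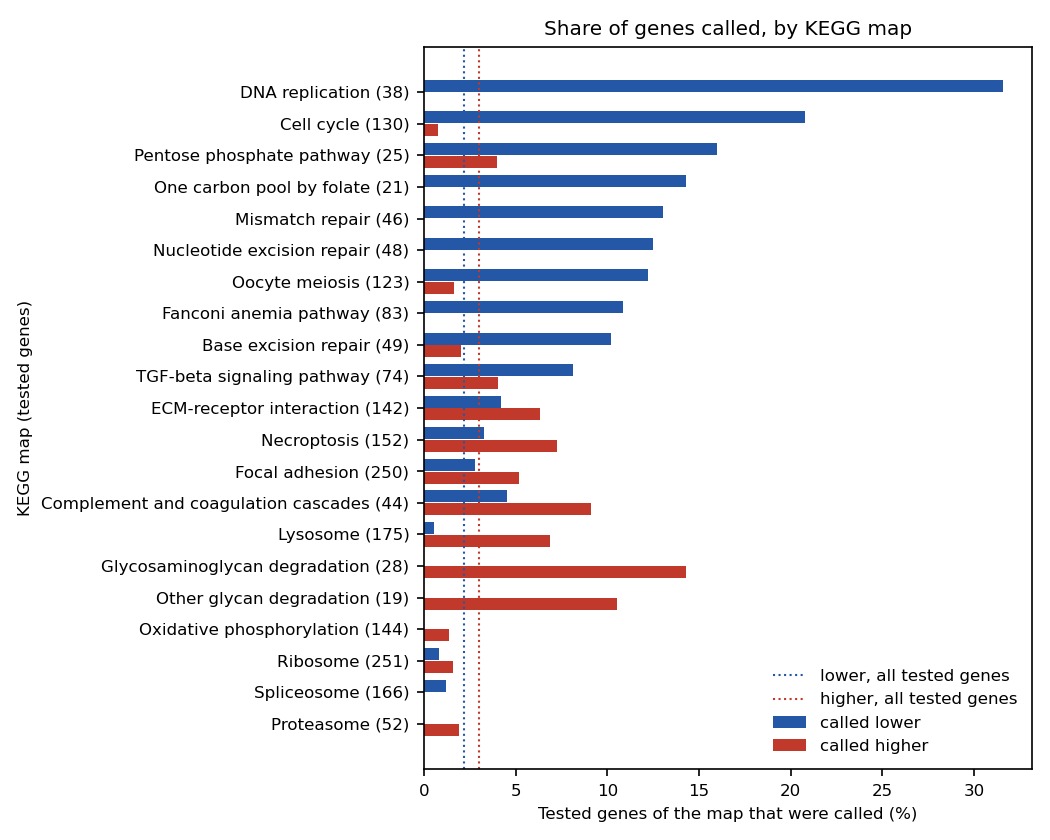
Percentage of the tested genes of 21 KEGG maps that were called lower (blue) or higher (red) with Si-FIBP#2, with the number of tested genes after each name. The dotted lines are the shares over all tested genes, 2.16% lower and 3.00% higher. DNA replication and Cell cycle have the longest blue bars, at 31.6% and 20.8%.

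In a list of YAP-TEAD and TGF-beta targets that also holds ligands, receptors and factors of these pathways, 8 of 24 tested genes were lower (33.3%, against 2.16% of all genes) and 1 higher (4.17%, against 3.00%), with a median of -0.50. YAP with TEAD factors and the SMAD proteins downstream of TGF-beta family receptors activate partly overlapping matrix and growth genes. CCN1, a matricellular gene like CCN2, was at 130.5, 117.2 and 118.3 FPKM in Scramble and at 33.6, 45.3 and 35.8 FPKM after Si-FIBP#2. The groups were apart, replicate 2 was the highest of the depleted samples, and the log2 fold change was -1.66. The largest falls in this list were those of CCN2, ID1 and ID3 given above.

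The member called higher was TGFBR2, the type II receptor of TGF-beta, at 18.4, 17.4 and 17.8 FPKM and 48.4, 44.4 and 53.4 FPKM. Its log2 fold change was 1.39. The KEGG TGF-beta map held 3 higher genes of 74, a share close to the 3.00% of all genes, and 6 with a pseudocount of 0.1. The 3 were TGFBR2, FBN1, which encodes fibrillin 1 (10.0 to 32.8 FPKM, 1.63), and LTBP1, which encodes a binding protein of latent TGF-beta (3.88 to 12.3 FPKM, 1.45). The map held 6 lower genes (8.11%, against 2.16% of all genes), with THBS1, ID1 and ID3 first. They include the pseudogene AC002519.2, not called without Scramble replicate 2 or 3 (-1.15 and -1.12) or Si-FIBP#2 replicate 1 or 2 (-1.07 and -1.2). DKK1, a secreted Wnt antagonist, went from 25.2, 20.5 and 23.8 FPKM to 5.13, 5.63 and 4.78 FPKM and was the only gene called lower in the Wnt map. The 11 higher genes of 305 are 3.61%, close to the 3.00% of all genes, and were 24 with a pseudocount of 0.1. Of the 11, 8 are not annotated as protein coding, such as LINC00467 and LUCAT1, and were placed in the map by the deposited annotation.

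Matrix and adhesion genes went in both directions. In the ECM-receptor map 9 of 142 genes were higher (6.34%) and 6 lower (4.23%), and in Focal adhesion 13 of 250 were higher (5.2%) and 7 lower (2.8%), against 3.00% and 2.16% of all genes. With a pseudocount of 0.1 the counts were 19 higher and 11 lower in ECM-receptor and 25 higher and 13 lower in Focal adhesion. The higher genes of both maps include the noncoding AC008014.1 and ZSCAN16-AS1. ITGA5, the alpha chain of the fibronectin receptor, was at 18.5, 22.3 and 20.2 FPKM and at 55.5, 60.4 and 58.6 FPKM, a log2 fold change of 1.47 ± 0.08 (SE, limma adjusted p = 2.81e-05). Of the laminin chains, LAMB3 rose from 20.6 to 47.1 FPKM and LAMC1 from 34.8 to 72.6 FPKM. LAMB3 was short of the threshold when only annotated transcripts were summed (0.95). The proteoglycan SDC4 fell from 62.2 to 23.5 FPKM (-1.37), the collagen COL13A1 from 13.2 to 4.51 FPKM (-1.36) and the actin crosslinker FLNA from 297.1 to 104.5 FPKM (-1.54). KRT18, a keratin of simple epithelia, fell from 476.0 to 174.8 FPKM (-1.45), and VIM, the intermediate filament of mesenchymal cells, was at 3232 FPKM in Scramble and at 1988 FPKM after Si-FIBP#2 (-0.72).

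Several lysosomal enzymes were higher. In the Lysosome map 12 of 175 genes were called higher (6.86%, against 3.00%) and 1 lower, and the median was 0.32. At the FDR alone 82 of the 175 were higher, against 29.7% of all tested genes. With median ratio scaling 9 were called higher. The 12 include the pseudogene AC138409.2, not called without Scramble replicate 3 (0.95) or Si-FIBP#2 replicate 1 (0.84), and the antisense RNA ZSCAN16-AS1. GAA, which degrades glycogen in lysosomes, was at 18.03, 15.6 and 15.0 FPKM in Scramble and at 45.5, 46.9 and 44.8 FPKM after Si-FIBP#2 (log2 fold change 1.45). LIPA, the acid lipase, was at 28.5, 29.3 and 28.8 FPKM and at 70.3, 70.7 and 71.0 FPKM (1.26). The samples of each group were closely alike in both genes. The protease CTSL rose from 50.8 to 122.1 FPKM and FUCA1, a fucosidase, from 7.25 to 20.9 FPKM. The gene called lower was HELLS, a chromatin remodeler that the deposited annotation places in this map (-1.53).

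The smaller degradation maps drew on the same genes. In Glycosaminoglycan degradation 4 of 28 genes were higher (14.3%, against 3.00% of all genes), among them the galactosidase GLB1 (24.8 to 53.6 FPKM) and the pseudogene AC138409.2. The count was 2 without Scramble replicate 3 or without Si-FIBP#2 replicate 1, and 1 with median ratio scaling. In Other glycan degradation 2 of 19 were higher, FUCA1 and GLB1, and the map median was 0.62. GLB1 was at 0.97 with median ratio scaling. In Complement and coagulation cascades 4 of 44 genes were higher (9.09%), including the coagulation inhibitor TFPI (11.6 to 32.1 FPKM) and the anticoagulant PROS1 (6.57 to 18.5 FPKM). The other two higher genes are the noncoding HULC and LUCAT1, and HULC was not called without Scramble replicate 1 (0.89), without Si-FIBP#2 replicate 2 (0.89) or with median ratio scaling (0.93). In this map 2 of the 44 genes were lower, including PLAU, the urokinase gene, against 2.16% of all genes.

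Histone genes stood out within the Necroptosis map, where 11 of 152 genes were higher (7.24%) and 5 lower, since KEGG places H2A genes there. With a pseudocount of 0.1 the higher count of the map was 17. A grouping of the replication-dependent cluster histones, made after their values were seen, had 21 of 33 tested genes called higher (63.6%, against 3.00% of all genes) and 1 lower (3.03%, against 2.16%). The grouping lists 70 genes, and the untested ones fell short of the filter. With a sample left out 16 to 21 were called higher, and with median ratio scaling 18. How many entered the test only through the Si-FIBP#2 samples was not examined. H2AC6 was at 16.2, 14.4 and 15.8 FPKM in Scramble and at 72.4, 80.6 and 72.3 FPKM after Si-FIBP#2, a log2 fold change of 2.21 ± 0.07 (SE, limma adjusted p = 1.05e-05). H2BC12 was at 191.9, 185.4 and 179.1 FPKM and at 432.2, 651.3 and 450.5 FPKM. All depleted samples lay above all Scramble samples for both genes. The libraries were prepared by selection of polyadenylated RNA, whereas mRNAs of cluster histones normally end in a stem-loop without a poly(A) tail. These values may cover the polyadenylated part only, and how far RNA without a tail was carried along was not tested. H2AC19 (7.46 to 32.7 FPKM) and H2AC18 share nearly the same sequence and their values are uncertain.

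Of 10 tested replacement variants, none were called higher and 2 were lower (20%), against 3.00% and 2.16% of all genes. In so small a group, none called higher is close to the share of all genes. At the FDR alone 2 were higher and 4 lower, against 29.7% and 17.5% of all tested genes. The median log2 fold change was 0.06. H2AZ1 was at 752.9, 771.7 and 799.1 FPKM and at 317.4, 278.1 and 297.9 FPKM (log2 fold change -1.38), and H2AX, whose phosphorylated form marks DNA breaks, was at 143.4, 143.4 and 133.6 FPKM and at 63.1, 51.2 and 54.4 FPKM (-1.31). The groups were separate in both.

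Some maps had shares of called genes below those of all genes, 3.00% higher and 2.16% lower. In Oxidative phosphorylation 2 of 144 genes were called higher (1.39%) and none lower, and the median was 0.21. At the FDR alone 66 of the 144 were higher, against 29.7% of all tested genes. COX7B2, a testis-enriched form of a cytochrome oxidase subunit, went from 30.2 to 76.1 FPKM. In Ribosome 4 of 251 were higher (1.59%) and 2 lower (0.797%), and none of the 6 is annotated as protein coding. The higher count was 2, 1 and 0 without Si-FIBP#2 replicate 1, 2 and 3, and the lower count was 1, 0 and 0 without Scramble replicate 1, 2 and 3, 4 with TPM scaling and 5 with median ratio scaling. The Fatty acid biosynthesis and Terpenoid backbone maps, and a list of 23 lipid droplet and fatty acid genes, had none called in either direction by limma with the reported scaling. At the FDR alone, 8, 7 and 5 of their genes were higher and 2, 8 and 7 lower. Of all tested genes, 29.7% were higher and 17.5% lower at that threshold. With median ratio scaling the fatty acid synthase gene FASN, at 178.2 and 91.9 FPKM, was called lower (-1.06, against -0.95 as reported). With TPM scaling 1 gene of the Fatty acid biosynthesis map was called higher. In the Spliceosome map 2 of 166 genes were lower (1 without Scramble replicate 1), including the splicing factor U2AF2 (152.6 to 62.7 FPKM, -1.27).

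Among 21 tested genes of FGF ligands, receptors and partners, 2 were lower (9.52%, against 2.16% of all genes) and none higher. These were the coreceptor SDC4 and FGF1, the ligand that FIBP binds, which was at 2.96, 3.14 and 2.13 FPKM in Scramble and at 0.71, 0.18 and 0.59 FPKM after Si-FIBP#2. FGF1 did not enter the test without Scramble replicate 1, 2 or 3, which left 1 gene lower. FGFR1, the main receptor here, was at 31.1 and 29.3 FPKM (log2 fold change -0.09, limma adjusted p = 0.446). STAT3 was at 18.4, 18.6 and 16.7 FPKM and at 29.2, 29.2 and 29.8 FPKM, and did not reach a fold of 2 (0.69, limma adjusted p = 0.000222). Of 17 tested genes of the list of STAT3 and its targets, 1 was called lower (5.88%), the kinase PIM1 (11.8 to 4.48 FPKM, -1.22), and none higher. Of 26 interferon-stimulated genes tested, IFI44 was the only one called, from 1.73 to 5.40 FPKM. This is 3.85% of the list, close to the 3.00% of all genes called higher. A filter of 5 FPKM left 0 genes of this list called higher, whereas leaving out Si-FIBP#2 replicate 2 gave 2.

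The other lists held up to 5 called genes per direction. Among 27 tested genes of extracellular matrix and integrins 5 were higher (18.5%) and 3 lower (11.1%), against 3.00% and 2.16% of all genes, and the higher count was 8 with a pseudocount of 0.1 and 3 with annotated transcripts only. Among 14 of epithelial-mesenchymal transition none were higher and 3 lower (21.4%). In the lists that follow, 1 called gene makes up 3.70% to 7.69% of the list. Among 19 genes of cyclin-dependent kinase inhibitors and quiescence 1 was lower, CDKN2C, an inhibitor of CDK4 and CDK6 (41.1 to 19.0 FPKM). Of 23 genes of feedback on MAPK signaling, the phosphatase DUSP5 was higher (28.4 to 70.0 FPKM) and the inhibitor SPRY1 lower (9.43 to 3.70 FPKM), the latter not without Si-FIBP#2 replicate 2 (-0.97). DNAJB9, an ER chaperone cofactor, was the only gene called of 24 of the unfolded protein response (6.57 to 15.8 FPKM). Of 13 NF-kappaB and cytokine genes the chemokine CXCL2 was lower (94.4 to 40.5 FPKM), and the count was 2 without Scramble replicate 3 or Si-FIBP#2 replicate 1 or 2. Of 27 hypoxia genes STC1 was higher and the glycolytic enzyme PGK1 lower (264.7 to 128.9 FPKM), and the lower count was 0 without Si-FIBP#2 replicate 3 and 2 without Scramble replicate 2 or Si-FIBP#2 replicate 1. Of 25 cholesterol synthesis genes the sterol reductase TM7SF2 was higher (20.5 to 44.7 FPKM), but not without Scramble replicate 2 or with median ratio scaling.

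Si-FIBP#2 was also set against Si-FIBP#1 directly, in a fit of all 9 samples. Both comparisons with Scramble share their control samples, so their values are given only side by side. Between the siRNAs 84 of 14985 tested genes were called (0.561%), 40 higher and 44 lower with Si-FIBP#2. The count was 128 without Si-FIBP#2 replicate 2, and 45 of the 84 genes were called whichever sample of the siRNA groups was left out. FIBP did not differ, with 6.52 FPKM for Si-FIBP#1 and 7.09 FPKM for Si-FIBP#2 (log2 difference 0.13, limma adjusted p = 0.686).

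Among these calls, BTF3 had the largest fall of the genes with high expression. It was at 1097, 1107 and 1142 FPKM after Si-FIBP#1 and at 189, 302 and 172 FPKM after Si-FIBP#2, the log2 difference being -2.38 ± 0.17 (SE, limma adjusted p = 8.65e-05). The Si-FIBP#1 samples lay within or next to the Scramble range, and the mean was 1115 FPKM against 1097 FPKM. Its most abundant transcript, ENST00000335895, was at 1047 FPKM in Scramble and 209 FPKM after Si-FIBP#2. The longest run of the Si-FIBP#2 site in a BTF3 transcript was 8 bases. Among the 74 genes called between the siRNAs that were also tested against Scramble and had an annotated transcript, such runs reached 12 bases. ITGB1 and VGF also had 8. A run could lie anywhere in the site, and matches to the seed alone were not tested. Runs as short as 8 bases were not counted among genes not called, so whether this length is unusual was not tested. THBS1 was at 31.8 FPKM in Scramble, 9.94 FPKM after Si-FIBP#1 and 2.75 FPKM after Si-FIBP#2, so that its difference between siRNAs of -1.55 (limma adjusted p = 0.000362) lay on top of a fall with both. ID3 followed the same order, at 98.9, 53.2 and 23.0 FPKM.

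Some of the 44 lower genes, picked after their values were seen, had Si-FIBP#1 means near Scramble. DAG1, the gene of dystroglycan, was at 38.6 FPKM in Scramble, 41.5 FPKM after Si-FIBP#1 and 14.2 FPKM after Si-FIBP#2. PRPSAP2, which encodes a partner of phosphoribosyl pyrophosphate synthetase, was at 44.6, 50.3 and 19.1 FPKM, and ARL6IP5, a membrane protein gene, at 32.8, 31.6 and 11.9 FPKM. ITGB1, the beta-1 integrin chain, was uneven among replicates, at 143.8, 370.8 and 142.8 FPKM after Si-FIBP#2, with replicate 2 near the Scramble mean of 353.3 FPKM. It was at 460.8, 567.4 and 612.9 FPKM with Si-FIBP#1 and was not called against Scramble, where AC022149.1 was called only without replicate 2 (-1.77). By sign alone, 31 of the 44 genes had a higher value with Si-FIBP#1 than in Scramble, such as AC022149.1 (87.1 and 128.9 FPKM) and AL049840.5 (1.96 and 4.71 FPKM). This count cannot be read as a separate result. The 44 genes were chosen for being higher with Si-FIBP#1 than with Si-FIBP#2, which favours that sign. The remaining genes with the largest falls, AC015967.2, AL049840.5, RN7SL181P, AC022149.1 and RNF185-AS1, are not annotated as protein coding, and AC022149.1 was likewise uneven, at 21.7, 100.8 and 28.2 FPKM. Of these, AC015967.2 was listed at 0 in all Si-FIBP#2 samples. Of the 6 fits that left out a sample, AC015967.2 was called in 3, AL049840.5 in 2, RN7SL181P in 1 and AC022149.1 in 1, while RNF185-AS1 was called in all 6. Without Si-FIBP#2 replicate 2, AL049840.5 and RN7SL181P were not called, with limma adjusted p of 0.056 and 0.082 at log2 differences of -1.70 and -1.77, against -1.83 and -1.77 with it.

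The 40 genes higher with Si-FIBP#2 than with Si-FIBP#1 held several patterns. STC1 (27.5, 119.3 and 288.9 FPKM in Scramble, Si-FIBP#1 and Si-FIBP#2), VGF (40.1, 70.3 and 171.4 FPKM) and DMBT1 (2.06, 4.99 and 16.4 FPKM) were above Scramble with both siRNAs and highest with Si-FIBP#2. LAMB3 (20.6, 19.5 and 47.1 FPKM), SCML2, a polycomb group gene (6.23, 6.25 and 15.3 FPKM), and PTHLH, which encodes a parathyroid hormone-like peptide (2.91, 2.78 and 7.22 FPKM), had Si-FIBP#1 means near Scramble. By sign alone, 29 of the 40 genes had a lower value with Si-FIBP#1 than in Scramble, and this number includes genes at nearly the same level. The choice of the 40 genes by lower values with Si-FIBP#1 likewise favours that sign. LAMP1, a major lysosomal membrane protein gene, was at 41.9 FPKM in Scramble, 16.8 FPKM after Si-FIBP#1 and 55.9 FPKM after Si-FIBP#2 (log2 difference 1.67, limma adjusted p = 5.43e-05). CDKN1A was at 48.2, 22.6 and 54.6 FPKM, and the replication gene GINS1 at 10.6, 1.56 and 6.11 FPKM. SHCBP1L had the largest difference (2.33), with 5.81, 5.49 and 1.89 FPKM for Si-FIBP#2 and 0 in all Si-FIBP#1 samples, and it reached 3.44 FPKM in a Scramble sample. It was called in 2 of the 6 fits that left out a sample and was not called against Scramble in the fit of 6 samples.

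**Figure D4:**
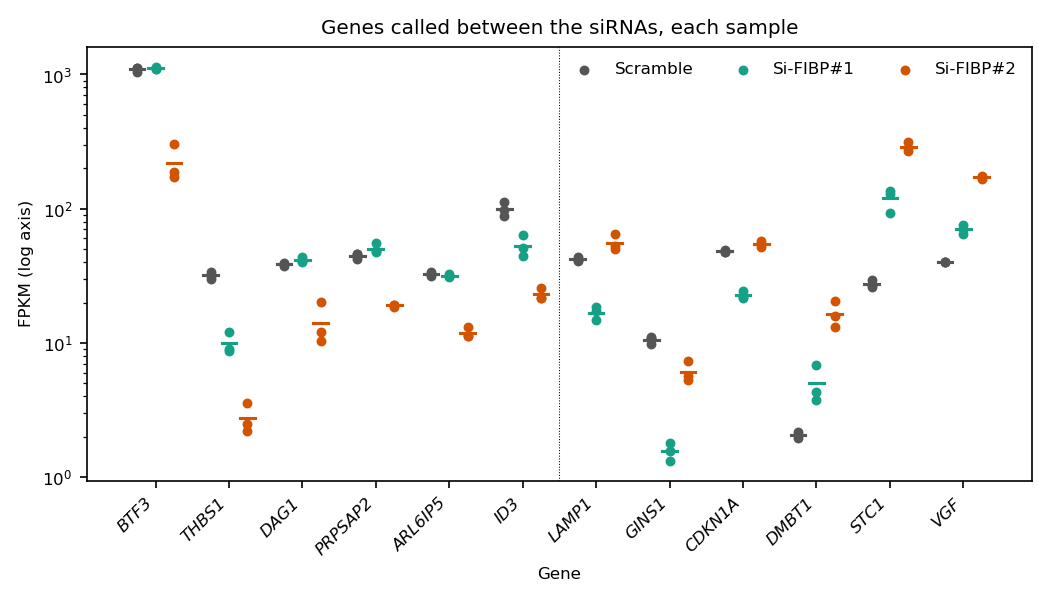
FPKM on a log axis of 12 genes called between the siRNAs, in the 3 samples each of Scramble (grey), Si-FIBP#1 (green) and Si-FIBP#2 (orange), with bars at the group means. Left of the dotted line are genes lower with Si-FIBP#2 than with Si-FIBP#1, and BTF3 has means of 1097 FPKM in Scramble and 1115 FPKM after Si-FIBP#1. Right of it are genes higher with Si-FIBP#2.

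MCM7 was at 328.6 FPKM in Scramble, 97.1 FPKM after Si-FIBP#1 and 134.5 FPKM after Si-FIBP#2, with 0.47 as the log2 difference (limma adjusted p = 0.00032). TYMS was at 213.5, 45.7 and 73.4 FPKM, a difference of 0.67 (limma adjusted p = 0.0011). MCM2 (83.6, 30.5 and 31.2 FPKM), UHRF1 (66.5, 17.3 and 18.04 FPKM) and KIF20A (53, 13.3 and 15.7 FPKM) did not pass the FDR between the siRNAs, which does not show that the siRNAs act alike on them. MYC, the proliferation transcription factor gene, was at 77.6, 78.8 and 48.0 FPKM, with -0.70 as the log2 difference (limma adjusted p = 0.00032). The lysosomal gene LIPA (28.9, 68.8 and 70.7 FPKM) did not pass either.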

How the data were processed

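RNA was poly(A)-selected, made into libraries with a kit described without strand marking and sequenced from both ends. The authors deposited 1 table per sample of FPKM per transcript, for Ensembl and assembled transcripts, with KEGG maps in a column. That the values are FPKM was inferred from the values. The submitters' processing notes name HISAT2 and StringTie. The genome build and annotation release are not given in the sources used here.

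FPKM were summed per gene. Genes reaching 1 FPKM in 3 or more samples entered a limma 3.58.1 fit (R 4.3.3, empirical Bayes with a mean-variance trend) of log2(FPKM + 1), a scale that understates changes of low genes. Genes with a Benjamini-Hochberg FDR below 0.05 and a log2 fold change beyond 1 were called. Si-FIBP#2 against Si-FIBP#1 used all 9 samples. The fit was tested on simulated data. The tables hold no counts, so precision is given by the spread between samples, and whether this includes separate cultures is known only from the design text, which calls the samples independent.

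Named genes were FIBP, the 12 largest falls and rises among called genes of at least 5 FPKM without overlap, the 5 largest in FPKM, up to 4 called genes per direction in a list or map (2 abundant ones where none was called), the 6 largest per direction between siRNAs and markers. Other named genes were chosen after their values were seen. Maps were 49 fixed ones and the 8 with the highest share called in each direction among the 219 with at least 15 tested genes, disease maps and homologous recombination left out. The comparison, lists and maps were chosen with earlier results of these data known. Gene types and coordinates came from GENCODE release 29 (GRCh38) and promoters from RefSeq (GRCh38.p14). Figures were drawn with matplotlib. Some genes and maps are not reported here.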

Additional observations from a re-analysis of the deposited data

How the results depend on the processing

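The counts of genes called against Scramble stayed within 1.5 times of the reported 434 higher and 312 lower under TPM scaling, median ratio scaling, no filter, all 9 samples in the fit and annotated transcripts only. They moved further with a pseudocount of 0.1 (846 higher), a filter of 5 FPKM (266 higher of 10206 tested genes) and the FDR without a fold change (4296 higher and 2531 lower). Leaving out each sample in turn gave 355 to 474 higher and 304 to 355 lower genes. Between the siRNAs, 172 genes were called with a pseudocount of 0.1, and 73 to 128 with a sample left out, the highest without Si-FIBP#2 replicate 2. Replicate numbers did not pair the Scramble and Si-FIBP#2 samples, since same-numbered samples deviated with correlations of -0.0074, -0.0185 and -0.0635. Pairing with the Si-FIBP#1 samples was not examined. With the replicate block 433 genes were higher, 319 lower and 88 differed between the siRNAs. Of 194 named genes with a call, 147 kept it under every alternative in which they were tested, 153 with each sample left out, and none reversed. Calls of low genes rest on few fragments, and in several maps a count of 6 or fewer called genes changed by over 1.5 times with a single sample, such as Protein processing in endoplasmic reticulum (6 to 2 higher) and Ubiquitin mediated proteolysis (6 to 3 higher) without Si-FIBP#2 replicate 2.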
